A study of Homo sapiens with 6 samples.

Results

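The genes described here are 51 enzymes, transporters and regulators that handle oxidants, glutathione and foreign chemicals, taken as a fixed list of symbols from the 58884 genes of the deposited table. All 51 symbols were found, and 45 had enough counts to be tested. The RNA was from the colorectal carcinoma line SW480, an established human line, whose cells carried a control guide RNA (sgCtrl, 3 libraries) or a guide RNA against ITPR3 (sgITPR3, 3 libraries). ITPR3 encodes the type 3 receptor for inositol trisphosphate, a calcium release channel of the endoplasmic reticulum. In both groups the cells had grown as liver metastases after injection into the portal circulation of NSG mice, an immunodeficient strain without mature lymphocytes. Tumour cells were then recovered from digested livers by a density gradient and a step that removes mouse cells and lysis of red cells, and polyadenylated RNA was read near transcript ends with a 3' kit. Per the labels, loss of ITPR3 was checked by Western blot. The labels do not say whether each library came from its own animal or whether the guide-bearing cells were a clone, so a p-value here speaks for the spread among these libraries, which may be technical.

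Libraries held 19140055 to 23943797 counts. Levels are CPM, counts scaled to a common library size, and group values are mean ± SD with n = 3 libraries per group. The test is the quasi-likelihood F test of edgeR, fitted on all 15804 genes that passed the low-count filter, and a gene passed at a Benjamini-Hochberg adjusted p under 0.05. For ITPR3 the 3 sgCtrl libraries held 108, 93.9 and 94.2 CPM and the 3 sgITPR3 libraries 39.4, 41.03 and 46.2 CPM (log2 fold change -1.22, edgeR adjusted p = 1.28e-07). Reads near the transcript end need not cover the cut site, so this is no direct check of the edit. Of 8 markers of the colorectal epithelium the summed level was 2410 to 2798 CPM in sgCtrl and 2025 to 2079 CPM in sgITPR3, with 2 higher, 3 lower and CDX1 at 0 in 4 of the 6 libraries. Summed markers of leukocytes were at 1.6 to 2.26 CPM over all libraries and those of endothelium at 0.202 to 0.722 CPM, with CLEC4G at 0. Fibroblast markers lay at 6.03 to 6.51 CPM in sgCtrl and 8.61 to 10.7 CPM in sgITPR3, with LUM at 0, and the sum of 4 erythroid markers at 0.587 to 1.34 CPM and 4.84 to 6.39 CPM. COL1A1 made most of the fibroblast sum, at 5.61 ± 0.173 CPM in sgCtrl and 7.82 ± 0.885 CPM in sgITPR3. HBA1 and HBA2 made most of the erythroid sum, while HBB and ALAS2 held at most 2 counts in a library and did not rise with them. The part of these 2 marker groups in the results was not tested. Of 15 hepatocyte markers 9 were tested, and APOC3 was at 0. APOA1 rose (log2 fold change 1.06) and SERPINA1 fell (-1.64). ALB, TTR, FGA, FGB, FGG, TF and VTN did not pass, with log2 fold changes from 0.91 to 1.37. The sum was 66.5 to 252 CPM in sgCtrl and 151 to 302 CPM in sgITPR3, and overlapped through sgCtrl replicate 2. For APOA1 and the genes that did not pass, that library was the highest control. ALB, the albumin gene, was at 33.8, 169.7 and 21.6 CPM in sgCtrl and at 232, 153 and 111 CPM in sgITPR3, so sgCtrl replicate 2 lay within the sgITPR3 range. The host was a mouse, the counts are of human genes, and how mouse reads were handled is not given. The sums of leukocyte, endothelium, fibroblast, erythroid and hepatocyte markers and the level of ALB therefore do not measure host cells. Low sums do not show that host cells were absent. A further fit, called ALB-adjusted here, holds the log2 CPM of ALB of each library as a covariate. ALB was lower in sgCtrl replicates 1 and 3 than in every sgITPR3 library, so this covariate is partly tied to the group. A call that ends in this fit therefore does not show a part of liver RNA.

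NRF2, the product of NFE2L2, is a transcription factor that the adaptor KEAP1 marks for destruction until oxidants or reactive chemicals modify KEAP1. Freed NRF2 binds antioxidant response elements and raises genes for glutathione synthesis, thioredoxin recycling, NADPH supply and conjugation of foreign chemicals. The aryl hydrocarbon receptor AHR is a separate sensor that induces CYP1 enzymes. Gut epithelium and colorectal cancers express many of these enzymes.

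Because many of these genes are known NRF2 targets, the 250 bases before the RefSeq transcript start (GRCh38.p14) were searched for the core of the antioxidant response element, TGACNNNGC, on both strands. Promoters of 38 members were matched in the RefSeq table. Those of HMOX1, GSS, GSR, SLC7A11, PRDX1, PRDX6, AKR1B10, FTH1, MGST2, ALDH2, ALDH3A1, CYP1B1 and SOD1 were not. The core was found in 8 of the 38 (21.1%), against 3013 of 27305 promoters in the table (11%). Sequence further upstream and other starts of the same gene were not searched, so a gene without a core here may still have an element. The shorter AHR element core GCGTG was found in 18 of the 38 (47.4%), against 31.9% of all promoters. Of 13 members past the test with a promoter, 4 held the antioxidant core: GCLM, TXNRD1, PGD and GPX2. Each site is printed as 29 bases in the direction of the gene, with the core in capitals. The lines are shown because they put the site of a gene that rose beside those of genes that fell and of genes that did not pass.
GCLM (fell), chr1:93909446-93909474, minus strand: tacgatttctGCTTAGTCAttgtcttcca
TXNRD1 (fell), chr12:104215670-104215698, plus strand: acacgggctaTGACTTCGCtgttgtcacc
PGD (fell), chr1:10398853-10398881, plus strand: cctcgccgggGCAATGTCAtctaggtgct
GPX2 (rose), chr14:64942849-64942877, minus strand: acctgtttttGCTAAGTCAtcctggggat
ME1 (did not pass), chr6:83431170-83431198, minus strand: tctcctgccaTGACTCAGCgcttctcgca
GSTP1 (did not pass), chr11:67583736-67583764, plus strand: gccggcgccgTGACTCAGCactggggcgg
GSTO1 (did not pass), chr10:104254656-104254684, plus strand: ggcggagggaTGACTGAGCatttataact
GSTO1 (did not pass), chr10:104254721-104254749, plus strand: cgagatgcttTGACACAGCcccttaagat
GSTA4 (did not pass), chr6:52995275-52995303, minus strand: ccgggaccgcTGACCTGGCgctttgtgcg

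In GCLM, PGD and GPX2 the core reads on the strand opposite to the gene, and read that way it is TGACTAAGC, TGACATTGC and TGACTTAGC. The cores of ME1 and GSTP1 are the same 9 letters and contain TGACTCA, the site of AP-1 factors, so the motifs overlap there. By GENCODE release 29 the cores of TXNRD1 and ME1 lie outside the gene, those of PGD and the first of GSTO1 in an intron of a longer transcript, that of GCLM partly in an exon, and those of GPX2, GSTP1, GSTA4 and the second of GSTO1 in an exon of a transcript that starts further upstream. The GCLM core begins 34 bases before the start, that of TXNRD1 99, that of GPX2 122 and that of PGD 201. For TXNRD1 the whole window is shown (chr12:104215529-104215778, plus strand), since it holds a core outside any exon of GENCODE release 29 and the gene fell.
TXNRD1: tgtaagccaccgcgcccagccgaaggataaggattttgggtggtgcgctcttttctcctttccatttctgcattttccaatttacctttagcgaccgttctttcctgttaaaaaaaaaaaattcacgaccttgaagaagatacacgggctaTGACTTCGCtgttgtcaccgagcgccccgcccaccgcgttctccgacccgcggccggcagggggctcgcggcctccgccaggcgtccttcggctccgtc

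The comparison of sgITPR3 with sgCtrl asked which of these genes differ when ITPR3 is targeted. Of the 45 tested members, 14 passed (31.1%), against 23.5% of all genes tested. The members were chosen with earlier results of these data known, so their share is no independent test. The groups did not overlap for 20 members, 8 higher and 12 lower in sgITPR3, where 39.3% of all genes tested did not overlap. In sgITPR3, 5 rose (11.1%, against 11.6% of all genes) and 9 fell (20%, against 11.9% of all genes). The 3 largest rises were those of the cystine carrier gene SLC7A11, the transferase gene MGST1 and the peroxidase gene GPX2. Those that fell did so by less, from 1.21-fold for AKR1A1 to 1.54-fold for TXN, the thioredoxin gene. Over the 45 tested members the median log2 fold change was -0.10, against 0.00086 over all genes tested, and the median size was 0.2 against 0.21. In the ALB-adjusted fit the counts were 3 higher and 4 lower, and without sgITPR3 replicate 2 they were 4 higher and 5 lower. Calls over all genes tested also became fewer in both fits, with the counts given in the closing section. In bulk RNA, fewer cells of a type and less RNA per cell cannot be told apart.

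**Figure D1:**
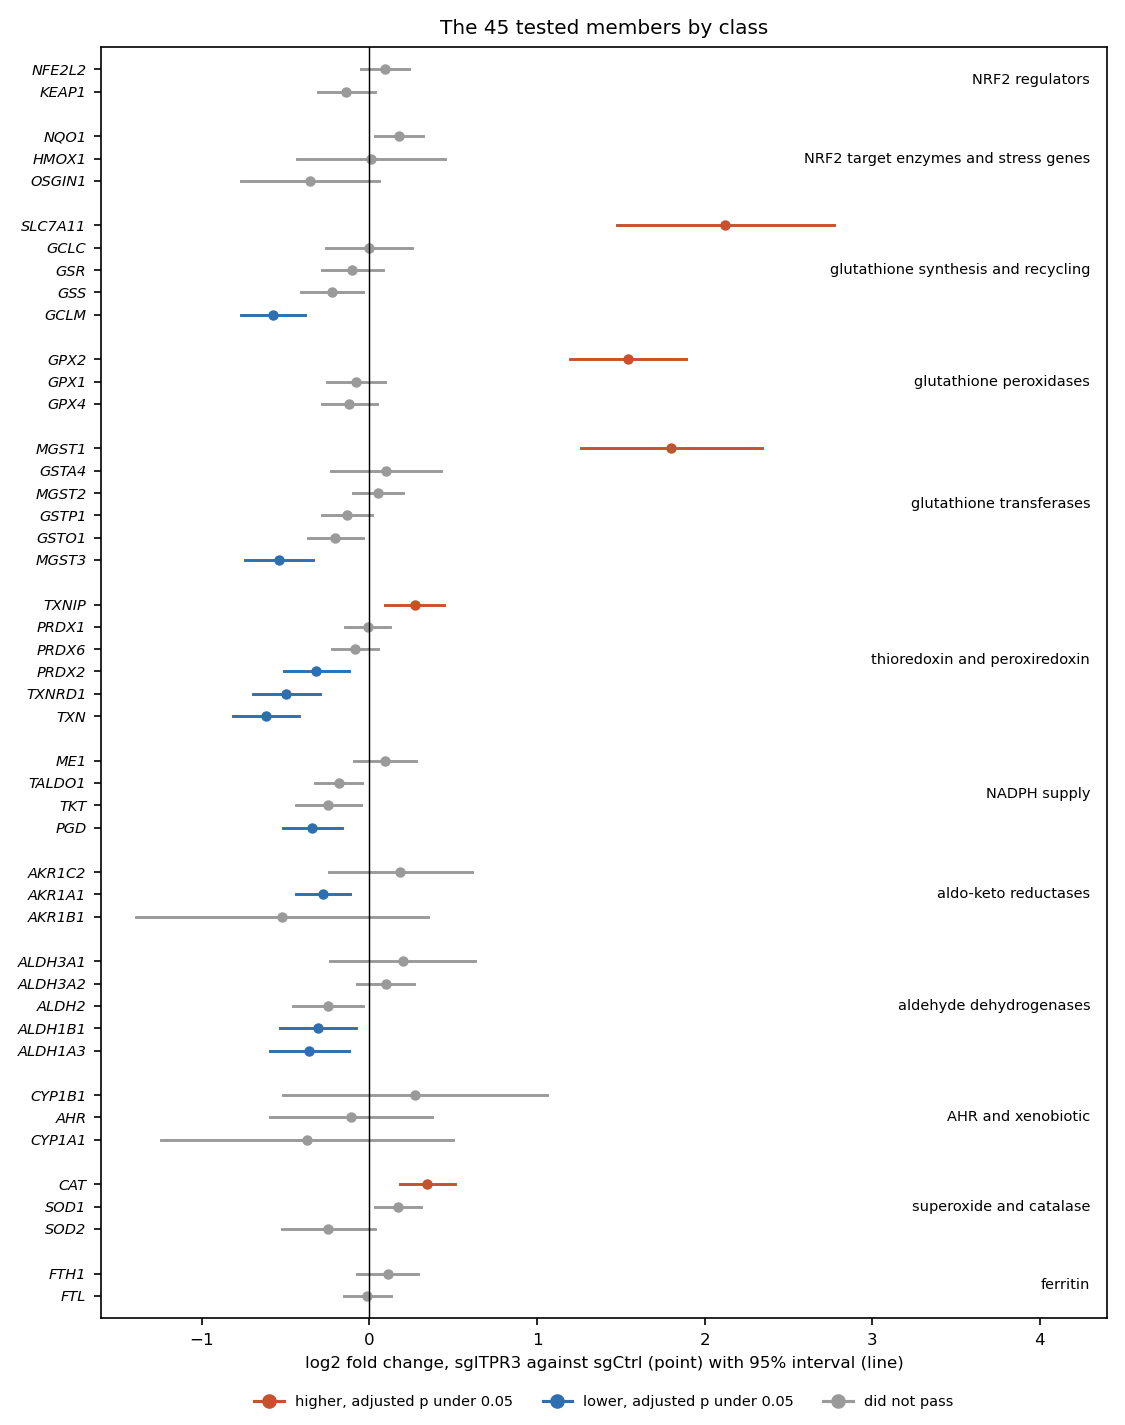
Log2 fold change (sgITPR3 against sgCtrl, horizontal axis) of the 45 tested members, with the 95% interval as a line, grouped by role. Orange members rose, blue members fell and grey members did not pass. SLC7A11 (2.12), MGST1 (1.80) and GPX2 (1.54) lie apart from the others, which are between -0.62 and 0.35.

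The regulators themselves did not pass. NFE2L2 was at 135, 146 and 151 CPM in sgCtrl and 152, 155 and 154 CPM in sgITPR3 (log2 fold change 0.09, 95% interval -0.05 to 0.23, edgeR adjusted p = 0.343). Its sgITPR3 libraries lay just above the sgCtrl libraries. KEAP1, which encodes the inhibitor of NRF2, was at 58.4, 51.8 and 58.5 CPM against 50.9, 54.6 and 47.7 CPM (log2 fold change -0.14, interval -0.31 to 0.03, edgeR adjusted p = 0.243), and its groups overlapped. RNA of either gene does not measure NRF2 protein, whose amount is set mainly by degradation.

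NQO1, HMOX1 and OSGIN1, which respond to NRF2 or to oxidative stress, did not pass either. NQO1, the quinone reductase, was at 129, 116 and 128 CPM in sgCtrl and at 140.2, 142 and 139 CPM in sgITPR3 (log2 fold change 0.18, interval 0.03 to 0.32, edgeR adjusted p = 0.0708). The sgITPR3 libraries were all above the sgCtrl libraries, and the gene passed only with the filter of 1 CPM in 3 libraries (edgeR adjusted p = 0.0491). HMOX1, the haem oxygenase that NRF2 and BACH1 control in opposite ways, was low and level, at 3.74 ± 0.519 and 3.75 ± 0.536 CPM (log2 fold change 0.01, interval -0.43 to 0.45). OSGIN1, a growth inhibitor induced by oxidative stress, was at 5.49 ± 0.808 and 4.31 ± 0.641 CPM (log2 fold change -0.35, interval -0.76 to 0.06). SRXN1, which encodes sulfiredoxin, was listed at 0 in all 6 libraries. In GENCODE release 29, 97.8% of the last 500 exonic bases of SRXN1 are shared with AL121758.1 on the same strand, which was at 0 in all libraries as well. The sources used here do not give how reads shared by overlapping genes were counted, so this 0 is no measure of SRXN1 expression.

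Of 5 genes of glutathione synthesis and recycling, 1 rose, 1 fell and 3 did not pass. SLC7A11 (ENSG00000151012, chromosome 4, 138164097 to 138242349) encodes xCT, the transporter that imports cystine in exchange for glutamate. It had 22, 14 and 10 counts in sgCtrl and 82, 85 and 69 counts in sgITPR3, or 1.18, 0.696 and 0.534 CPM against 3.54, 3.44 and 3.56 CPM. The sgITPR3 libraries were close to each other and all above sgCtrl, where replicate 1 was highest. The rise was 4.35-fold (log2 fold change 2.12, SE 0.302, edgeR adjusted p = 1.62e-04), and the log2 fold change lay between 1.90 and 2.49 when any library was left out. In sgCtrl replicate 2, the control library with the most ALB, SLC7A11 lay between the other controls. Whether liver RNA adds to the SLC7A11 level was not tested.

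GCLM (ENSG00000023909, chromosome 1, 93885205 to 93909456), the modifier subunit of glutamate-cysteine ligase, which makes the rate-limiting step of glutathione synthesis, moved the other way. Its level was 65.9, 60.1 and 74.96 CPM in sgCtrl and 45.3, 48.3 and 41.2 CPM in sgITPR3, with no overlap. It fell 1.49-fold (log2 fold change -0.57, SE 0.0903, edgeR adjusted p = 3.75e-04), and by 0.44 on the log2 scale in the ALB-adjusted fit (edgeR adjusted p = 0.0107). GCLC, the catalytic subunit of the same enzyme, was at 16.6, 22.8 and 19.01 CPM against 18.7, 21.3 and 18.4 CPM, and its log2 fold change was near 0 with an interval of -0.26 to 0.26. The groups of GCLC overlapped, and replicate 2 was the highest library of each group. GSS, which joins glycine to complete glutathione, was at 71.5 ± 6.46 and 61.3 ± 5.36 CPM (log2 fold change -0.22, interval -0.41 to -0.04, edgeR adjusted p = 0.0759). GSS passed without sgCtrl replicate 2 (edgeR adjusted p = 0.0141), and with all libraries without the low-count filter (0.0489) and with a replicate block (0.0296). GSR, the reductase that regenerates glutathione with NADPH, was at 35.2 ± 1.996 and 32.9 ± 1.88 CPM (log2 fold change -0.10, interval -0.28 to 0.08).

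**Figure D2:**
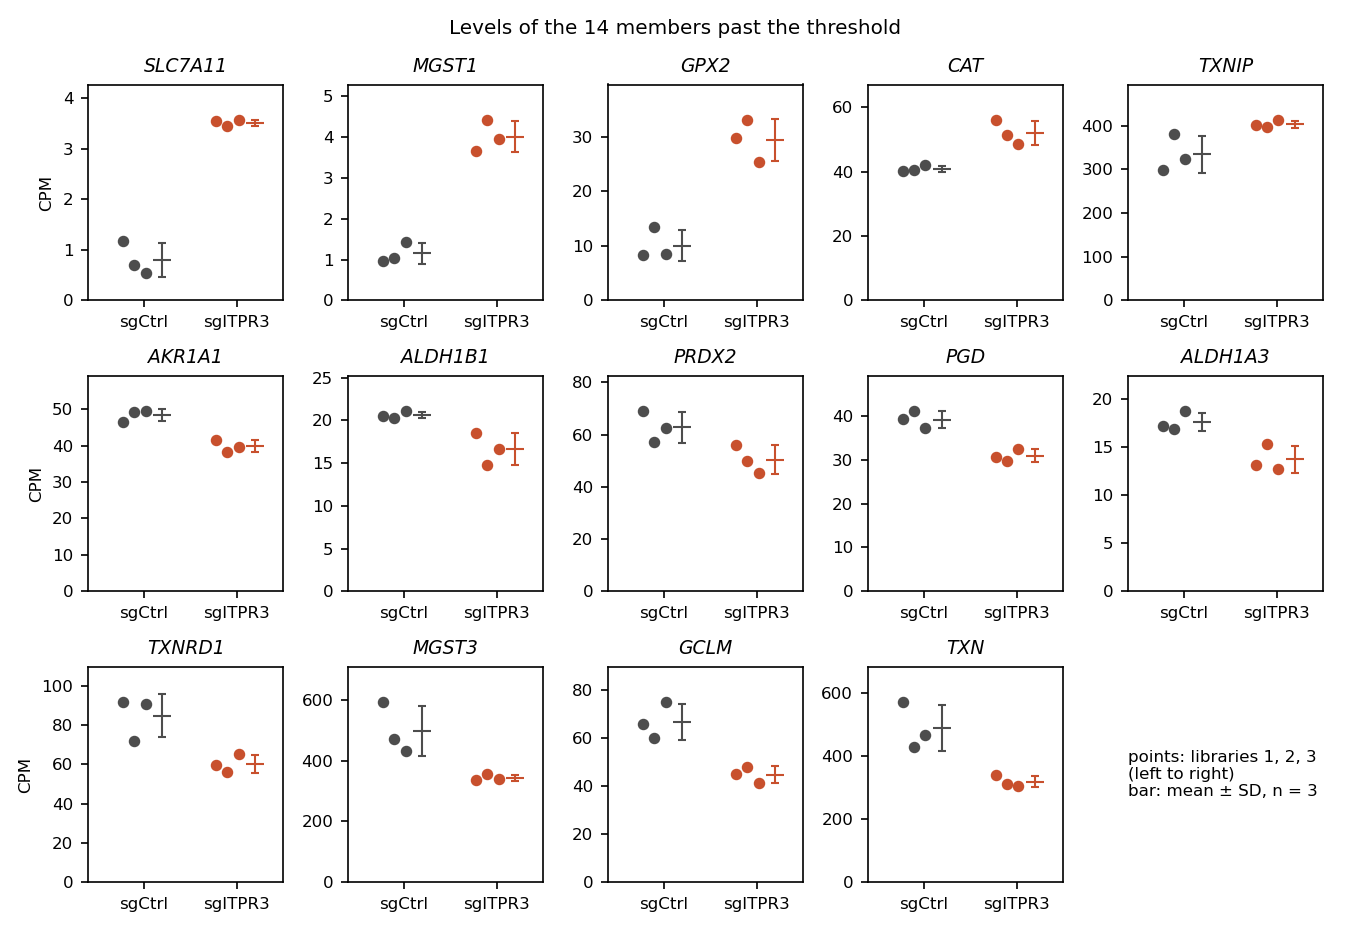
Level in CPM (vertical axes from 0) of each member past the threshold, with 1 point per library and the mean ± SD of n = 3 beside it. In all 14 panels the points of one group lie above those of the other, as for SLC7A11 (0.804 ± 0.338 against 3.51 ± 0.0636 CPM).

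Among the glutathione peroxidases, GPX2 rose and the broadly expressed forms did not pass. GPX2 (ENSG00000176153, chromosome 14, 64939152 to 64942905) is the peroxidase of gut epithelium. It was at 8.34, 13.4 and 8.44 CPM in sgCtrl and at 29.8, 32.98 and 25.4 CPM in sgITPR3. The lowest sgITPR3 library was above the highest sgCtrl library, and the rise was 2.91-fold (log2 fold change 1.54, SE 0.161, edgeR adjusted p = 9.74e-06). Highest of the controls was sgCtrl replicate 2, and the ALB-adjusted log2 fold change was 1.18 (edgeR adjusted p = 3.04e-05). GPX1, the cytosolic peroxidase, was at 115 ± 10.7 and 109 ± 7.77 CPM (log2 fold change -0.08, interval -0.25 to 0.10). GPX4, which reduces lipid peroxides and restrains ferroptosis, was at 130.0 ± 12.97 and 119.8 ± 1.37 CPM (log2 fold change -0.12, interval -0.28 to 0.04).

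The 6 tested glutathione transferases also divided, 1 rising, 1 falling and 4 not passing. MGST1 (ENSG00000008394, chromosome 12, 16347142 to 16609259), a membrane-bound transferase and peroxidase, was at 0.968, 1.04 and 1.44 CPM in sgCtrl and 3.67, 4.41 and 3.97 CPM in sgITPR3. Every sgITPR3 library was above every sgCtrl library, a rise of 3.48-fold (log2 fold change 1.80, SE 0.252, edgeR adjusted p = 1.40e-04). Hepatocytes also express MGST1. In sgCtrl replicate 2, with 169.7 CPM of ALB, MGST1 was at 1.04 CPM, and the ALB-adjusted log2 fold change was 1.99 (edgeR adjusted p = 7.97e-04). The part of liver RNA in the MGST1 level was not tested. MGST3 (ENSG00000143198, chromosome 1, 165630861 to 165661796), a related microsomal enzyme, was at 590.4, 470.0 and 432 CPM in sgCtrl and 336, 355 and 338 CPM in sgITPR3. It fell 1.45-fold (log2 fold change -0.54, SE 0.0949, edgeR adjusted p = 9.51e-04), and the control libraries were more spread than the sgITPR3 libraries. MGST2 of the same family was level, at 223 ± 9.76 and 231 ± 14.3 CPM (log2 fold change 0.05, interval -0.10 to 0.20).

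Among the members, GSTP1, GSTO1 and GSTA4 are cytosolic transferases, and they did not pass. GSTP1, the main form in colorectal cancer, was at 405 ± 22.2 and 370.1 ± 21.5 CPM (log2 fold change -0.13, interval -0.28 to 0.02). GSTO1, an omega class enzyme, was at 213, 196 and 191 CPM in sgCtrl and at 170.4, 161 and 190.2 CPM in sgITPR3 (log2 fold change -0.20, edgeR adjusted p = 0.069), where sgITPR3 replicate 3 almost reached the controls. GSTO1 passed without that library (edgeR adjusted p = 0.0287), and with all libraries in DESeq2 (adjusted p = 0.0478) and without the low-count filter (edgeR adjusted p = 0.0481). GSTA4, which conjugates hydroxynonenal from lipid peroxidation, was at 7.04 ± 0.925 and 7.53 ± 0.588 CPM. GSTM3 had 0 counts in the 3 sgCtrl libraries and 4, 6 and 0 counts in sgITPR3, and was not tested.

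Of 6 thioredoxin and peroxiredoxin genes, TXN, TXNRD1 and PRDX2 fell, TXNIP rose, and PRDX1 and PRDX6 did not pass. The calls of TXNRD1, TXNIP and PRDX2 ended in 1, 6 and 4 of the 13 other fits. TXN (ENSG00000136810, chromosome 9, 110243811 to 110256640), the cytosolic thioredoxin that reduces protein disulfides, was at 569, 429.5 and 467 CPM in sgCtrl and 339, 309.7 and 306 CPM in sgITPR3. All sgITPR3 libraries were below all sgCtrl libraries, with a fall of 1.54-fold (log2 fold change -0.62, SE 0.0918, edgeR adjusted p = 2.29e-04). TXNRD1 (ENSG00000198431, chromosome 12, 104215779 to 104350305), the reductase that recharges thioredoxin from NADPH, was at 91.4, 72.04 and 90.8 CPM against 59.4, 56.2 and 65.00 CPM. It fell 1.41-fold without overlap (log2 fold change -0.49, SE 0.0934, edgeR adjusted p = 0.00159). In sgCtrl replicate 2, TXN and TXNRD1 were the lowest of the controls, and the ALB-adjusted log2 fold change of TXNRD1 was -0.29, which ended its call (edgeR adjusted p = 0.0567), while TXN kept its call at -0.52 (edgeR adjusted p = 0.00341).

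TXNIP (ENSG00000265972, chromosome 1, 145992435 to 145996600) encodes the protein that binds and inhibits thioredoxin and is induced by glucose. It was at 299, 380.5 and 323 CPM in sgCtrl and at 402, 396 and 412 CPM in sgITPR3, a rise of 1.21-fold (log2 fold change 0.27, SE 0.0819, edgeR adjusted p = 0.0272). No overlap was seen, but sgCtrl replicate 2 came close to sgITPR3. The call ended in the ALB-adjusted fit (log2 fold change 0.14, edgeR adjusted p = 0.366) and when any library but sgCtrl replicate 2 was left out (edgeR adjusted p from 0.0743 to 0.115). PRDX2 (ENSG00000167815, chromosome 19, 12796820 to 12801859), a peroxiredoxin that uses thioredoxin to remove hydrogen peroxide, was at 68.8, 57.2 and 62.4 CPM in sgCtrl and at 56.2, 49.7 and 45.3 CPM in sgITPR3. Its fall was 1.24-fold (log2 fold change -0.32, SE 0.0916, edgeR adjusted p = 0.0222), with the groups barely apart, and the call ended without sgCtrl replicate 1 (edgeR adjusted p = 0.0873), sgITPR3 replicate 2 (0.0798) or sgITPR3 replicate 3 (0.0956), and in the ALB-adjusted fit (0.158). PRDX1, a relative in the cytosol, was at 619 ± 15.1 and 615 ± 10.6 CPM (log2 fold change -0.01, interval -0.14 to 0.12). PRDX6, which draws on glutathione instead, was at 135 ± 2.19 and 127 ± 3.17 CPM (log2 fold change -0.09, interval -0.22 to 0.05).

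**Figure D3:**
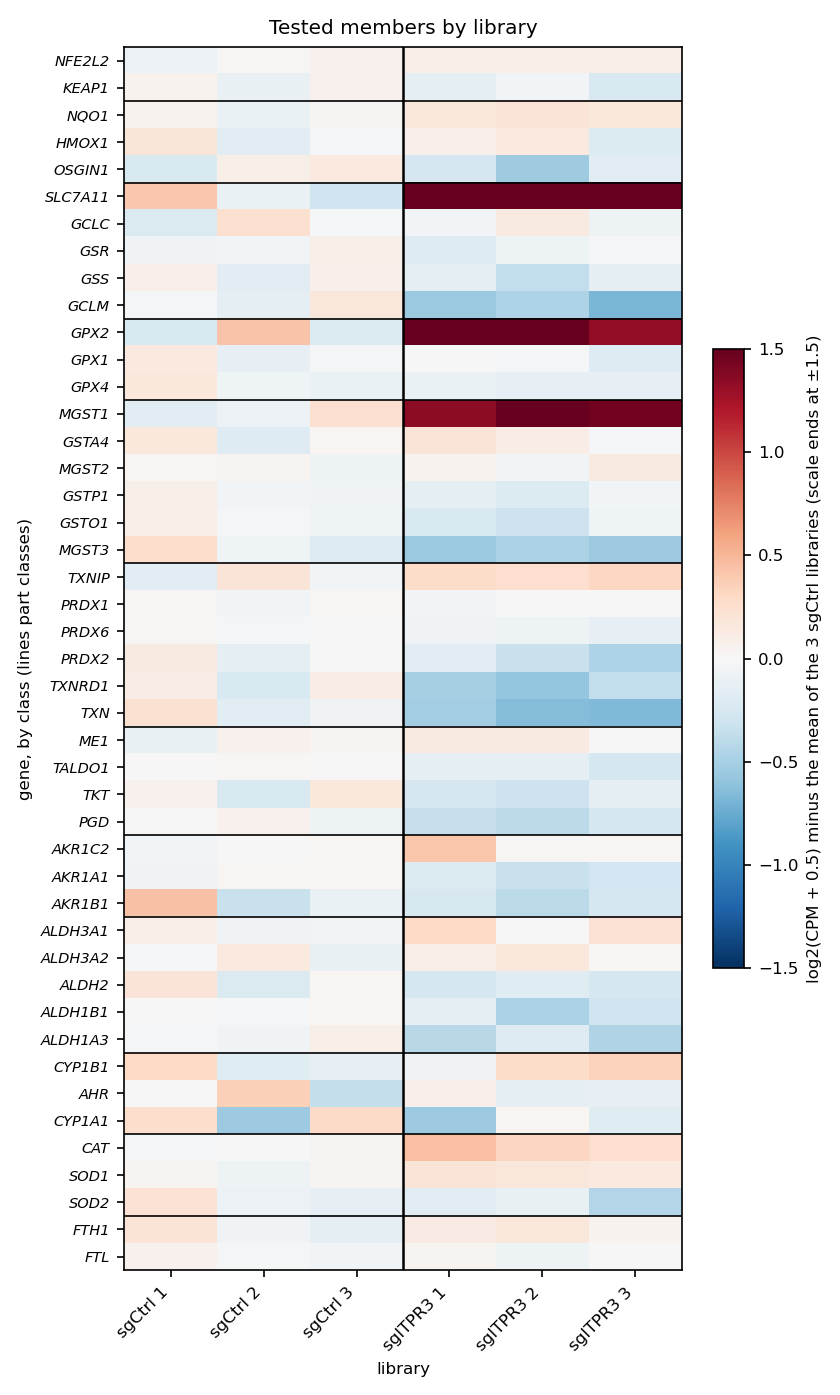
Each row is a tested member and each column a library, and the colour is log2(CPM + 0.5) minus the mean of the 3 sgCtrl libraries, with red for higher and blue for lower values. Rows of SLC7A11, GPX2 and MGST1 are red in all 3 sgITPR3 libraries, and rows of TXN, TXNRD1, GCLM and MGST3 are blue in all 3.

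Of the genes that supply NADPH, 1 of 4 passed. PGD (ENSG00000142657, chromosome 1, 10398592 to 10420144), the phosphogluconate dehydrogenase of the oxidative pentose phosphate pathway, was at 39.3, 40.97 and 37.1 CPM in sgCtrl and 30.7, 29.6 and 32.5 CPM in sgITPR3. It fell 1.27-fold with no overlap (log2 fold change -0.34, SE 0.0816, edgeR adjusted p = 0.00779), and reached an edgeR adjusted p of 0.0509 without sgITPR3 replicate 2. TALDO1 and TKT, which run the non-oxidative part of the pathway, had intervals below 0 but did not pass in the edgeR fit described above. TALDO1 was at 159, 162 and 159 CPM against 145, 145 and 133 CPM (log2 fold change -0.18, edgeR adjusted p = 0.0586), with the groups apart, and passed in DESeq2 (adjusted p = 0.0398). TKT was at 121, 99.1 and 129.5 CPM against 97.2, 93.4 and 105 CPM (log2 fold change -0.25, edgeR adjusted p = 0.0646). Its groups overlapped through sgCtrl replicate 2, without which TKT passed (log2 fold change -0.35, edgeR adjusted p = 0.00228). TKT also passed with all libraries in DESeq2 (adjusted p = 0.0481), without the low-count filter (edgeR adjusted p = 0.0148) and with a replicate block (edgeR adjusted p = 0.025). ME1, the cytosolic malic enzyme, was at 29.3 ± 2.05 and 31.3 ± 1.66 CPM (log2 fold change 0.09, interval -0.09 to 0.28).

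Of the aldo-keto reductases, which reduce aldehydes and ketones with NADPH, 1 of 3 tested passed. AKR1A1 (ENSG00000117448, chromosome 1, 45550543 to 45570049) was at 46.4, 49.1 and 49.3 CPM in sgCtrl and 41.6, 38.3 and 39.5 CPM in sgITPR3. The groups were apart, with a fall of 1.21-fold (log2 fold change -0.28, SE 0.0753, edgeR adjusted p = 0.0155), and the call ended in the ALB-adjusted fit (edgeR adjusted p = 0.0598) and without sgITPR3 replicate 2 (0.0818). AKR1C2 was at 3.85 ± 0.123 and 4.37 ± 0.814 CPM (log2 fold change 0.19, interval -0.24 to 0.61) and AKR1B1, aldose reductase, at 1.05 ± 0.45 and 0.733 ± 0.0738 CPM. AKR1B10, AKR1C1 and AKR1C3 had from 0 to 10 counts in a library and were not tested. AKR1C1 and AKR1C2 are nearly identical in sequence, and reads may have been split between them.

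Of the aldehyde dehydrogenases, 2 of 5 fell, both by little. ALDH1A3 (ENSG00000184254, chromosome 15, 100877714 to 100916626), which makes retinoic acid, was at 17.2, 16.9 and 18.7 CPM in sgCtrl and 13.1, 15.3 and 12.7 CPM in sgITPR3, a fall of 1.28-fold (edgeR adjusted p = 0.03). ALDH1B1 (ENSG00000137124, chromosome 9, 38392664 to 38398661), a mitochondrial form of gut progenitors, was at 20.5, 20.3 and 21.04 CPM against 18.6, 14.7 and 16.6 CPM, a fall of 1.24-fold (edgeR adjusted p = 0.0489). Neither pair of groups overlapped. The ALDH1A3 call ended without sgCtrl replicate 1 (edgeR adjusted p = 0.0502), sgCtrl replicate 3 (0.102), sgITPR3 replicate 1 (0.105) or sgITPR3 replicate 3 (0.0958), and in the ALB-adjusted fit (0.22). The ALDH1B1 call ended in 9 of 13 other fits, among them 5 of the 6 that left out a library (edgeR adjusted p from 0.0562 to 0.216, all but the fit without sgITPR3 replicate 1). ALDH2, which clears acetaldehyde, was at 49.8, 37.4 and 44.5 CPM against 36.1, 38.4 and 36.5 CPM (log2 fold change -0.24, edgeR adjusted p = 0.0839), and overlapped through sgCtrl replicate 2. ALDH2 passed without that library (edgeR adjusted p = 0.00677) and, with all libraries, without the low-count filter (edgeR adjusted p = 0.0485). ALDH3A2, a fatty aldehyde dehydrogenase, was at 83.5 ± 8.06 and 89.3 ± 4.78 CPM and ALDH3A1 at 3.38 ± 0.239 and 3.88 ± 0.473 CPM, and neither passed.

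The members AHR, CYP1A1, CYP1B1 and UGT1A6 had few counts. None of the 3 tested passed in edgeR or in any of the 13 other fits, DESeq2 and limma-voom included (0 of 3 at an unadjusted p under 0.05). AHR was at 3.93, 5.17 and 2.94 CPM in sgCtrl and 4.15, 3.48 and 3.56 CPM in sgITPR3 (log2 fold change -0.11, interval -0.59 to 0.38). CYP1A1, the classical AHR target, had 28, 13 and 29 counts against 15, 30 and 19 counts (log2 fold change -0.37, interval -1.24 to 0.50), and CYP1B1 was at 0.928 ± 0.269 and 1.12 ± 0.227 CPM (interval of the log2 fold change -0.52 to 1.06). The intervals of CYP1A1 and CYP1B1 are wide, and changes inside them were not detectable at this depth. UGT1A6, which attaches glucuronic acid to phenols, had 0 to 3 counts in a library. All of its last 500 exonic bases (100%) are shared with other UGT1A genes on the same strand, so a 3' tag cannot name the gene.

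Of the enzymes that remove superoxide and peroxide directly, catalase passed. CAT (ENSG00000121691, chromosome 11, 34438925 to 34472062), the peroxisomal enzyme, was at 40.2, 40.6 and 41.9 CPM in sgCtrl and 55.9, 51.4 and 48.7 CPM in sgITPR3. It rose 1.27-fold with no overlap (log2 fold change 0.35, SE 0.0777, edgeR adjusted p = 0.0051). Liver is rich in catalase. The ALB-adjusted log2 fold change was 0.33 and the call ended (edgeR adjusted p = 0.0536). The control library with the most ALB lay between the other controls for CAT. Any part of liver RNA in the CAT level was not tested. SOD1, the cytosolic superoxide dismutase, was at 454, 417 and 453 CPM against 504, 497 and 488 CPM (log2 fold change 0.17, edgeR adjusted p = 0.0718), with the groups apart, and passed in DESeq2 (adjusted p = 0.0351) and limma-voom (adjusted p = 0.04998). SOD2, the mitochondrial form and a known NF-kB target, was at 15.7 ± 2.14 and 13.2 ± 1.61 CPM (log2 fold change -0.25, interval -0.52 to 0.03), counted under its main identifier, since a second identifier of the same symbol held at most 2 counts in a library. The ferritin chains, which store iron, were level: FTH1 was at 412 ± 53.7 and 444 ± 17.1 CPM (interval of the log2 fold change -0.07 to 0.29) and FTL at 654 ± 27.5 and 649 ± 26.7 CPM (-0.15 to 0.13). Processed pseudogenes named after 13 of the members held at most 0.338% of the counts of their parent gene, the highest share being that of FTH1.

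Under the 13 other fits, 6 of the 14 calls kept their direction and stayed past the threshold throughout. These were SLC7A11, MGST1, GPX2, TXN, GCLM and MGST3. The other 8 lost the call in at least 1 fit, and no member past the test changed direction.

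**Figure D4:**
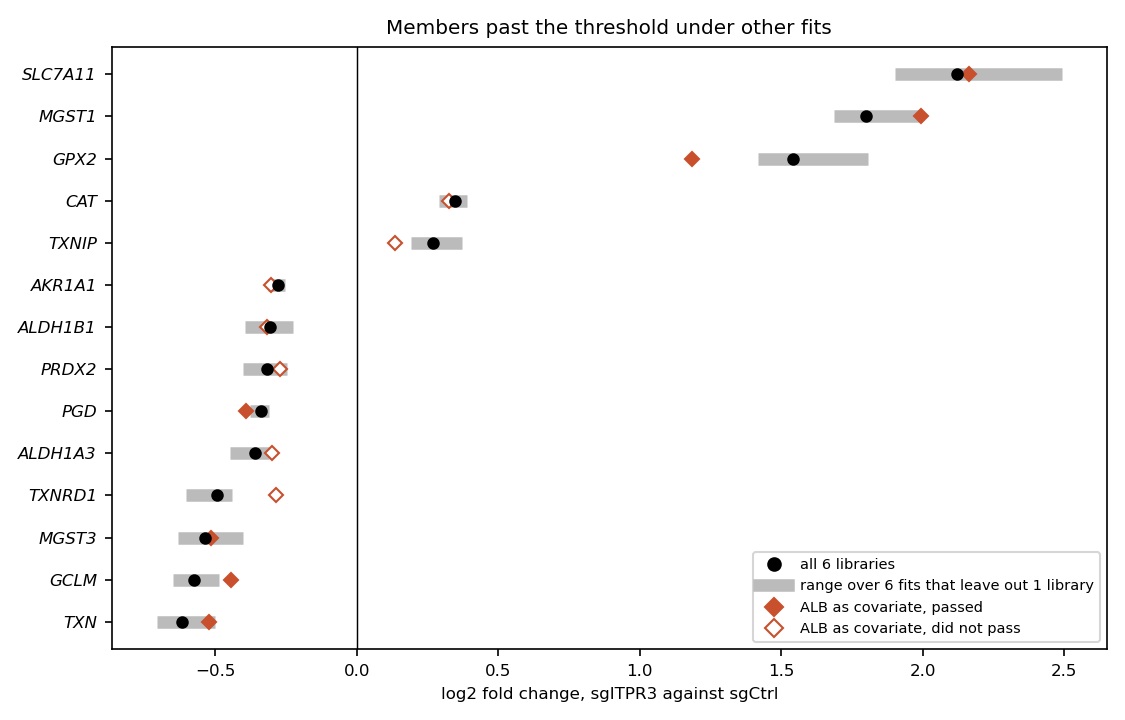
Log2 fold change (horizontal axis) of the 14 members past the threshold in the fit of all 6 libraries (black point), over the 6 fits that each leave out a library (grey bar, lowest to highest) and in the ALB-adjusted fit (diamond, filled where it passed). SLC7A11, MGST1, GPX2, PGD, MGST3, GCLM and TXN have filled diamonds, and no bar crosses 0.

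Other genes of these pathways were read from 7 lists that hold none of the members, chosen with earlier results of these data known. Of all genes tested, 11.6% rose and 11.9% fell, and each list count is to be read beside these shares. Of 30 tested genes of the NRF2 pathway, 10 fell, 3 rose and 17 did not pass, with a median log2 fold change of -0.06. The 3 with the smallest p fell. ABCC3, an exporter of conjugates, went from 54.9 ± 0.828 to 26.00 ± 2.99 CPM (2.12-fold lower, edgeR adjusted p = 8.74e-07). CBR3, a carbonyl reductase, fell from 19.5 ± 2.2 to 10.3 ± 1.29 CPM, and MAFK, a small Maf protein that pairs with NRF2 on its element, from 67.7 ± 6.41 to 44.7 ± 1.99 CPM. Their groups did not overlap.

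Of 28 tested glutathione genes, 5 rose, 5 fell and 18 did not pass (of all genes tested, 11.6% rose and 11.9% fell). The glutaredoxin genes GLRX and GLRX5, whose products use glutathione to reduce disulfides and to carry iron-sulfur clusters, both fell. GLRX was at 55.4 ± 2.73 CPM in sgCtrl and 37.6 ± 2.78 CPM in sgITPR3, and GLRX5 at 212 ± 17.00 and 149 ± 6.89 CPM. The transferase gene GSTM4 rose from 24.4 ± 0.581 to 36.00 ± 3.16 CPM, and it has close paralogs that may share its reads. Of 26 tested thioredoxin, peroxiredoxin and methionine sulfoxide reductase genes, 3 rose, 4 fell and 19 did not pass. MSRB2, a mitochondrial enzyme that repairs oxidised methionine, rose from 64.4 ± 3.72 to 107 ± 6.29 CPM (1.66-fold, edgeR adjusted p = 6.26e-06), and MSRA, which repairs a different stereoisomer, fell from 14.9 ± 2.07 to 8.63 ± 0.963 CPM (1.73-fold, edgeR adjusted p = 8.67e-04). Of 2 relatives of MSRB2, named after their values were seen, MSRB1 fell (log2 fold change -0.40, edgeR adjusted p = 0.00528) and MSRB3 did not pass (log2 fold change 0.04). SESN3, a sestrin, rose from 54.9 ± 4.88 to 75.6 ± 6.56 CPM.

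Of 24 tested AHR and xenobiotic genes, 5 rose and 19 did not pass (of all genes tested, 11.6% rose and 11.9% fell). The sulfotransferase gene SULT1A1, which also has close paralogs, rose from 31.8 ± 1.51 to 53.9 ± 6.55 CPM (1.70-fold, edgeR adjusted p = 4.34e-05) and UGT8, a galactosyltransferase, from 14.9 ± 2.82 to 20.4 ± 0.217 CPM. CYP2E1, an ethanol-metabolising enzyme of hepatocytes, rose from 0.823 ± 0.161 to 1.88 ± 0.403 CPM, and its call ended in the ALB-adjusted fit (edgeR adjusted p = 0.054) and without sgCtrl replicate 1 (0.0502) or 2 (0.0505) or sgITPR3 replicate 1 (0.0818) or 3 (0.0676). That of UGT8 ended without sgCtrl replicate 1 (edgeR adjusted p = 0.0666). Of 14 tested aldehyde dehydrogenase and aldo-keto reductase genes outside the members, 2 rose and 2 fell. ALDH6A1 and ALDH7A1, which act in valine and lysine breakdown, both rose. ALDH6A1 was at 44.02 ± 3.99 and 57.9 ± 5.89 CPM, and ALDH7A1 at 60.9 ± 4.21 and 73.1 ± 3.21 CPM. ALDH18A1, an enzyme of proline synthesis, fell from 42.7 ± 0.473 to 33.5 ± 4.39 CPM. The ALDH7A1 call ended without sgCtrl replicate 1 (edgeR adjusted p = 0.075) or sgITPR3 replicate 1 (0.0953) and in the ALB-adjusted fit (0.0668). That of ALDH18A1 ended without sgITPR3 replicate 1 (edgeR adjusted p = 0.0602) or 3 (0.0664).

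Of 17 tested pentose phosphate and NADPH genes, 2 rose, 1 fell and 14 did not pass (of all genes tested, 11.6% rose and 11.9% fell). IDH2, the mitochondrial NADPH-forming isocitrate dehydrogenase, rose from 26.2 ± 0.813 to 34.1 ± 0.673 CPM, and MTHFD1L, of mitochondrial folate metabolism, fell from 29.2 ± 3.39 to 20.3 ± 0.296 CPM. TKTL1, a transketolase-like gene, rose from 2.72 ± 1.05 to 4.93 ± 1.76 CPM with overlapping groups. Its call ended without sgCtrl replicate 2 (edgeR adjusted p = 0.0917) or 3 (0.134) or sgITPR3 replicate 2 (0.27) and in the ALB-adjusted fit (0.0605), as did that of IDH2 in the latter (0.0585). Of 17 tested superoxide, oxidase and iron genes, 2 fell and 15 did not pass. PCBP1, which delivers iron to ferritin, fell from 296 ± 27.9 to 241 ± 7.01 CPM, and NCOA4, the receptor that takes ferritin to lysosomes, from 90.7 ± 4.53 to 77.7 ± 2.82 CPM. The NCOA4 call ended in the 5 fits that left out a library other than sgCtrl replicate 1 (edgeR adjusted p from 0.0584 to 0.0996), and both ended in the ALB-adjusted fit (0.123 for PCBP1, 0.0746 for NCOA4).

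**Figure D5:**
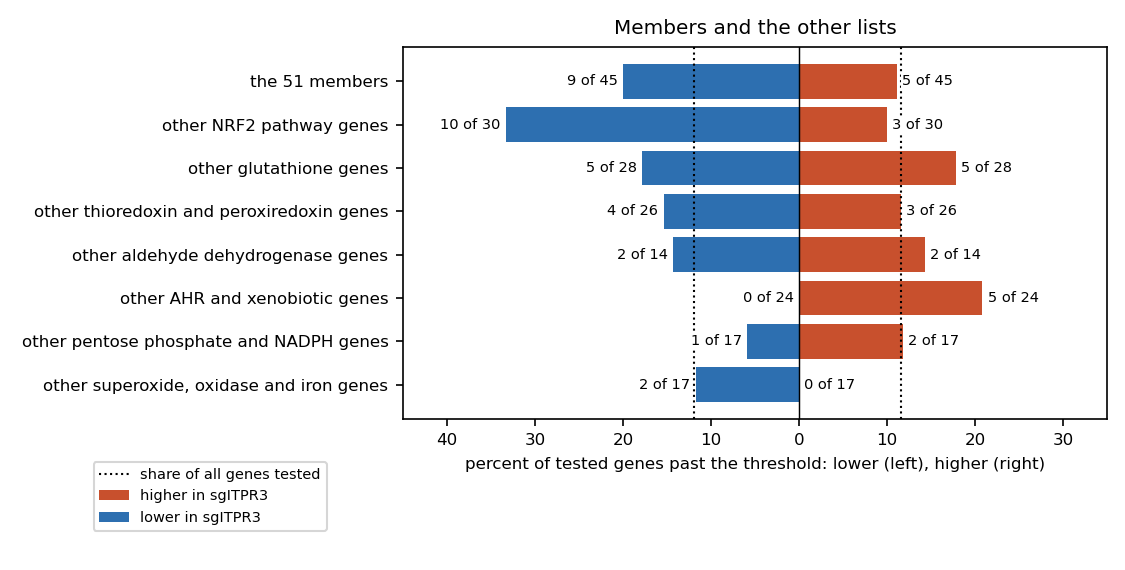
Percent of tested genes that fell (left, blue) and rose (right, orange) among the members and in the 7 other lists, with the number of genes at each bar and dotted lines at the shares of all genes tested (11.9% lower, 11.6% higher). The other NRF2 pathway genes fell in 10 of 30 cases, and the other AHR and xenobiotic genes rose in 5 of 24. Members and lists were chosen with earlier results of these data known, which may have shaped their shares.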

How the data were processed

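The 6 libraries, 3 of each group by their labels, come as 1 table of gene counts. STAR 2.6.0a, featureCounts 1.6.3, DESeq2 and the build GRCh38 are named in the submitters' processing notes, and the deposited values are whole-number gene counts, not normalized. The sources used here do not give the annotation release, the strand setting or how mouse, multi-mapping and overlapping reads were handled. These counts were used as deposited and scaled by TMM, with filterByExpr (minimum count 10) to drop low genes. Symbols were paired with 58641 of 58884 identifiers and positions are from GENCODE release 29 on GRCh38. Tests used R 4.3.3 and the quasi-likelihood test of edgeR 4.0.16 without covariates, adjusted over all 15804 genes tested, with intervals at 95% from its moderated degrees of freedom. The SE is the absolute log2 fold change over the square root of F. A count is worth 0.0405 to 0.0538 CPM, and 3 counts are 0.121 to 0.161 CPM. Alternatives were RLE scaling, other filters, DESeq2 1.42.0, limma-voom (limma 3.58.1), a replicate block, leaving out each library and ALB as a covariate. The test was also run on counts simulated from the dispersions of its own fit, which cannot vouch for the calls in these data. Members past the threshold are described library by library, the others more briefly, and of each other list the 3 genes with the smallest p among those past the threshold are named. CES3 and UGT2B17 were added for their low levels, after their values were seen. The members, lists, motifs and alternatives were chosen with earlier results of these data known.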

Additional observations from a re-analysis of the deposited data

How the results depend on the processing

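The limits are the depth of low genes (SLC7A11, MGST1, CYP1A1), the 3 libraries per group, and counts of ALB and other hepatocyte markers that vary between libraries. The source of these marker counts was not tested. With ALB as a covariate 3 members rose and 4 fell, and over all genes 1000 rose and 982 fell, against 1835 and 1882. Over the fits that left out a library, members that rose numbered 4 to 5 and members that fell 5 to 11, and genes that rose numbered 1135 to 2121 and genes that fell 1196 to 2140; without sgITPR3 replicate 2 there were 5, 1135 and 1196 for the last 3 of these. ITPR3 kept its direction and call in all 13 fits (log2 fold change -1.29 to -1.15). No other setting moved these counts by over 1.5 times. No scaling moved the median of all genes by over 0.1, the largest shift being 0.05 without a filter. Of the members that did not pass, 8 changed sign in at least 1 fit, CYP1A1 from -0.37 and the others from values nearer 0. The log2 fold change of GCLC was 0.0085 with the filter of 1 CPM, 0.0093 with limma-voom and 0.0065 with the replicate block, and -0.109 to 0.128 with a library left out. That of PRDX1 was 0.0315 with ALB as a covariate and -0.0336 to 0.0031 with a library left out, that of ALDH3A2 was -0.0399 and that of CYP1A1 0.48 with ALB as a covariate. With a library left out, HMOX1 ranged from -0.079 to 0.117, FTL from -0.0399 to 0.0187, GSTA4 from -0.0012 to 0.185 and AHR from -0.291 to 0.117. The cause was not tested. With the replicate number as a block 5 members rose and 11 fell, and 1896 genes rose and 1981 fell. Same-numbered libraries deviated together at r = -0.0511, 0.0384 and 0.119, and not every library correlated best with its own number, so the numbers do not show a pairing.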
